A study of Rattus norvegicus with 10 samples.

Results

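Slc26 proteins carry anions across epithelial membranes, and the 7 genes described here are *Slc26a1*, *Slc26a2*, *Slc26a4*, *Slc26a6*, *Slc26a7*, *Slc26a9* and *Slc26a11*. They were taken by symbol, 1 row each, from a table of 32545 rat genes that lists 11 Slc26 genes in all. They were chosen from measured values of these same libraries, with earlier results on their levels and on the difference between the sexes known. Their levels and their differences between the sexes are therefore given as a description, and the adjusted p of the fit over all genes only places each gene among the others.

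RNA was sequenced from the kidneys of 5 male and 5 female PCK rats, 1 library per rat. PCK (PCK/CrljCrl-Pkhd1pck/Crl) is a strain with a mutation in *Pkhd1* and a model of autosomal recessive polycystic kidney disease. Both sexes carry the mutation and the labels name no treatment, so the comparison is of females with males within diseased kidneys, and no rats without the mutation entered it. The labels name the tissue as kidney and the age as 12 to 14 weeks, while the study's methods name snap-frozen cortex and 10 to 12 weeks. According to the methods the rats were littermates of 2 pairs of parents, and litter was not used here.

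Members of the Slc26 family exchange chloride for bicarbonate, sulfate or oxalate, and some also conduct chloride as channels. *Slc26a4* encodes pendrin, the apical chloride/bicarbonate exchanger of type B and related intercalated cells of the connecting tubule and cortical collecting duct, where it secretes bicarbonate and takes up chloride. *Slc26a7* encodes a chloride/bicarbonate exchanger or chloride channel of acid-secreting cells in kidney and stomach, and *Slc26a9* a chloride transporter best known in stomach and airway. *Slc26a1* encodes the basolateral sulfate and oxalate exchanger sat-1 of the proximal tubule, and *Slc26a6* the apical chloride/oxalate exchanger of the same cells. *Slc26a2* encodes a widely expressed sulfate transporter that cartilage needs, and *Slc26a11* a sulfate and chloride transporter found in intercalated cells.

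The window of 250 bases before the start is shown for *Slc26a9* and *Slc26a4*. *Slc26a9* is the member with the largest log2 fold change between the sexes, as tested below, and *Slc26a4* is the most abundant member. RefSeq gave such a window for 4 of the 7 genes, on the rat build GRCr8, which is not the build of the expression table. *Slc26a9* starts on the plus strand of chromosome 13 after the window chr13:45729833-45730082, and *Slc26a4* on the minus strand of chromosome 6 after chr6:53873217-53873466. Capitals mark letters of motifs searched on both strands. Those reported here are TATAAA of the TATA box, AGGTCA of the oestrogen receptor, its palindromic element GGTCANNNTGACC and TGTTTAC of forkhead factors.
Slc26a9: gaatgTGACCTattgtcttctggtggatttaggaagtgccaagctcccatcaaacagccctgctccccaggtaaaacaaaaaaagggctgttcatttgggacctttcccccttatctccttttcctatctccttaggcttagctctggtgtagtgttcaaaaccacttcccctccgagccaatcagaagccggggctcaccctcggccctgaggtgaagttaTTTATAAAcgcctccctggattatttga
Slc26a4: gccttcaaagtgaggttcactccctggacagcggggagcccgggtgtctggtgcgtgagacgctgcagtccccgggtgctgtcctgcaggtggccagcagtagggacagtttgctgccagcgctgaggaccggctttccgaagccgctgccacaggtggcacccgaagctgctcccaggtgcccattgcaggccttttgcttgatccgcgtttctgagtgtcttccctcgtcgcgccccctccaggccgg
The *Slc26a9* window held TATAAA on both strands as 1 overlapping run, its first match 28 bases before the start, and AGGTCA once on the reverse strand, 245 bases before the start. Of 33469 rat promoter windows of this length, 12.9% held TATAAA and 14.1% held AGGTCA. The *Slc26a4* window held none of these motifs and was richer in G and C, at 65.6% against 48.8%. Across all windows the palindromic oestrogen element was found in 0.0239% and TGTTTAC in 3.21%. These are matches of letters and not measured binding sites.

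Reads on genes numbered 13912569 to 20285911 in males and 14963924 to 19556707 in females, with overlapping ranges (p = 0.889, two-sided exact permutation test). Levels are FPKM, fragments scaled to gene length and to a size per library, and 1 read on a gene of 1 kb was worth 0.0486 to 0.0710 FPKM. That size was not the reads on genes, being 17691443 against 19556707 in female 4. The factor of median-ratio scaling was 1.00764 in every library, so the deposited values were already on that scale. Reads of mitochondrial genes made up 15.1 to 17.0% in males and 14.3 to 26.8% in females, the highest in female 2 (p = 0.278, two-sided exact permutation test). Female 2 also stood apart on the second principal component, at 79.3 against -27.5 to 24.8 in the other rats, and male 5 lay farthest from the other males on the first, at -60.4 against -35.4 to -21.1. Calls that were lost without these 2 libraries are named beside the gene. The tissue expressed kidney markers at high levels, with *Umod*, the uromodulin of the thick ascending limb, averaging 985 ± 204 in the male rats and 1265 ± 273 FPKM in the female rats (SD, n = 5 each, limma adjusted p = 0.419).

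The 7 genes spanned a 95.7-fold range of mean level. Over the 10 rats the order by mean FPKM was *Slc26a4* at 51.2, *Slc26a1* at 43.0, *Slc26a11* at 6.31, *Slc26a6* at 2.89, *Slc26a2* at 2.06, *Slc26a7* at 1.24 and *Slc26a9* at 0.535. *Slc26a4* and *Slc26a1* together made up 83.1 to 88.6% of the summed FPKM of the family in each rat.

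Of the 6 steps in this order, 4 held in 10 of 10 rats. The step from *Slc26a4* to *Slc26a1* held in 7 rats, in 2 of 5 males and 5 of 5 females. The ratio of *Slc26a4* to *Slc26a1* was 0.464 to 1.19 in males and 1.14 to 2.52 in females, so the 2 ranges overlapped narrowly. The step from *Slc26a2* to *Slc26a7* held in 8 rats, in 5 of 5 males and 3 of 5 females. There the ratio of *Slc26a7* to *Slc26a2* was 0.219 to 0.357 in males and 0.655 to 2.33 in females. Summed over the family, the level ran from 84.9 to 126.3 in males and from 100.3 to 131.1 FPKM in females, with broad overlap.

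**Figure D1:**
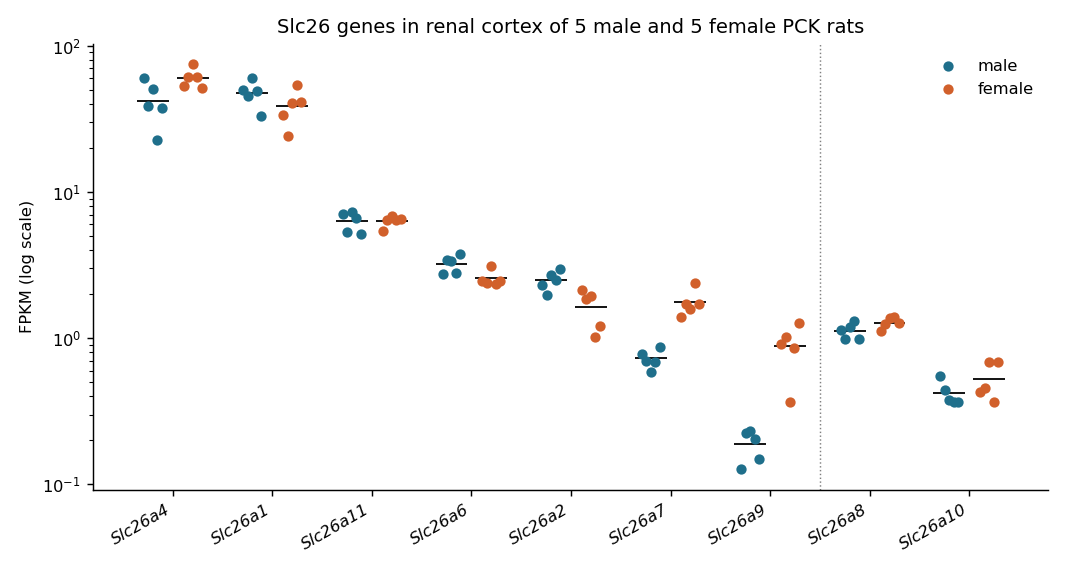
Level of each Slc26 gene in FPKM (log axis) in each of 5 male (blue) and 5 female (orange) PCK rats, with a horizontal line at the mean of each sex. The 7 genes described lie left of the dotted line in order of mean level, *Slc26a8* and *Slc26a10* lie right of it, and male and female points are apart for *Slc26a7* and *Slc26a9* alone of the 9 genes.

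*Slc26a7* and *Slc26a9*, the least abundant members, were higher in every female than in every male. *Slc26a7* rose 2.42-fold in mean FPKM and *Slc26a9* rose 4.70-fold. Females were compared with males by limma, on log2(FPKM + 0.1), over 17631 genes whose mean reached 0.1 FPKM, and p was adjusted over all of them by the method of Benjamini and Hochberg. A gene was called at an adjusted p of at most 0.05, and a stricter rule asked in addition for a log2 fold change of 1 or more, up or down.

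Both genes met both rules, which makes 2 of the 7 members, where 2.4% of all genes tested were called by the adjusted p and 1.32% by both thresholds, with 0.618% of all genes called higher in females by both. The ranges of the sexes did not overlap for these 2 members, both higher in females, and for 5.1% of all genes, split into 2.5% higher and 2.6% lower in females. Since the members were chosen with these differences known, nothing is read from those shares. By p, *Slc26a7* ranked 129 and *Slc26a9* ranked 201 of all genes. The median log2 fold change was 0.02 over the 7 members and -0.01 over all genes tested, with 4 members above 0 and 3 below.

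*Slc26a7* (ENSRNOG00000006096) lies on chr5:27986663-28164326 of Rnor_6.0, minus strand. In male rats 1 to 5 it was at 0.784, 0.702, 0.590, 0.689 and 0.871 FPKM, and in female rats 1 to 5 at 1.40, 1.72, 1.58, 2.38 and 1.72 FPKM. The lowest female, female 1, was thus above the highest male, male 5, and female 4 stood highest. The male mean was 0.727 ± 0.106 and the female mean 1.76 ± 0.373 FPKM (SD, n = 5 each). Males had 45 to 75 reads on the gene and females 124 to 223. The log2 fold change was 1.16 (SE 0.17, 95% interval 0.77 to 1.54, limma adjusted p = 0.00496). Leaving out each rat in turn kept it between 1.05 and 1.23, with the adjusted p between 0.0072 and 0.0190. Over all 22 alternatives the adjusted p was 0.00188 to 0.0424, and without male 5 and female 2 the log2 fold change was 1.22 (limma adjusted p = 0.0163). With a pseudocount of 1 it was 0.67, which is under the fold threshold of the stricter rule.

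*Slc26a7* shares 31259 bases of its span with *Lrrc69*, which is on the same strand. *Lrrc69* averaged 0.356 ± 0.174 in males and 0.329 ± 0.141 FPKM in females (SD, n = 5 each). Its log2 fold change of -0.06 had a limma adjusted p of 0.962.

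*Slc26a9* (ENSRNOG00000029514) lies on chr13:48513008-48539467 of Rnor_6.0, plus strand. It was at 0.127, 0.226, 0.233, 0.203 and 0.149 FPKM in male rats 1 to 5 and at 0.916, 1.01, 0.364, 0.853 and 1.26 FPKM in female rats 1 to 5. Female 3 was only somewhat above the highest male, male 3, while the other 4 females lay far above all males. The male mean was 0.187 ± 0.0472 and the female mean 0.882 ± 0.329 FPKM (SD, n = 5 each). The log2 fold change was 1.70 (SE 0.30, 95% interval 1.05 to 2.36, limma adjusted p = 0.0121).

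Few reads stand behind *Slc26a9*, between 7 and 15 in each male and between 22 and 72 in each female. The exact Poisson 95% interval of the 22 reads in female 3 was 13.8 to 33.3 reads, or 0.228 to 0.551 FPKM. In male 3, with 12 reads, it was 6.20 to 21.0 reads, or 0.120 to 0.406 FPKM, so these 2 rats were not told apart at this depth. Such intervals cover counting error only. The call was kept when each rat was left out in turn (limma adjusted p 0.00246 to 0.0408) but was lost when male 5 and female 2 were left out together (log2 fold change 1.59, limma adjusted p = 0.0592). With a pseudocount of 1 the log2 fold change was 0.65, which is under the fold threshold.

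*Slc26a8* and *Slc26a10*, which are not among the 7, give a scale for these low levels. *Slc26a8*, known from testis, averaged 1.12 ± 0.140 in males and 1.28 ± 0.106 FPKM in females (SD, n = 5 each), and its log2 fold change of 0.18 had a limma adjusted p of 0.600. The ratio of *Slc26a7* to *Slc26a8* was 0.493 to 0.888 in males and 1.16 to 1.72 in females. *Slc26a7* was therefore the lower of the pair in 5 of 5 males and the higher in 5 of 5 females. *Slc26a10* averaged 0.419 ± 0.0802 in males and 0.524 ± 0.151 FPKM in females (SD, n = 5 each, log2 fold change 0.25, limma adjusted p = 0.670). Its span shares 349 bases with *B4galnt1* on the opposite strand. *Slc26a3*, the chloride/bicarbonate exchanger of the intestine, had at most 1 read per rat although it lies 42622 bases from *Slc26a4*, and *Slc26a5*, the motor protein of cochlear outer hair cells, had 0 reads in all 10 rats. With 3 reads as the floor, neither was detectable at this depth.

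*Slc26a4* (ENSRNOG00000058692, chr6:50808923-50846965 of Rnor_6.0, minus strand) had the highest mean level of the family in females and, in males, the widest spread of the 7, with an SD of 33.8% of the mean. Male rats 1 to 5 had 59.8, 39.0, 50.9, 22.6 and 37.5 FPKM, and female rats 1 to 5 had 52.9, 61.1, 74.7, 61.4 and 51.7 FPKM. Male 4 was lowest of all and male 1 lay within the female range, so the sexes overlapped. The male mean was 42.0 ± 14.2 and the female mean 60.4 ± 9.18 FPKM (SD, n = 5 each), a ratio of 1.44. The log2 fold change of 0.58 (SE 0.23, 95% interval 0.09 to 1.08) did not pass the test (limma adjusted p = 0.232). The gene had 1499 to 4063 reads in each library. Without male 4 the log2 fold change was 0.38 and still not called. As a share of the family's summed FPKM, *Slc26a4* made up 26.3 to 48.0% in males and 47.1 to 60.9% in females.

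The 4 sulfate and oxalate transporters were not called, and 3 of them had lower means in females. *Slc26a2* (ENSRNOG00000018082, chr18:56520740-56534415 of Rnor_6.0, minus strand) was at 2.32, 1.96, 2.70, 2.48 and 2.99 FPKM in male rats 1 to 5 and at 2.13, 1.85, 1.94, 1.02 and 1.20 FPKM in female rats 1 to 5. Females 4 and 5 were lowest, and only female 1 was above the lowest male, male 2. The means were 2.49 ± 0.388 and 1.63 ± 0.487 FPKM (SD, n = 5 each), and the log2 fold change of -0.62 (SE 0.21, 95% interval -1.09 to -0.16) had a limma adjusted p of 0.174. Between 52 and 147 reads per rat fell on *Slc26a2*.

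*Slc26a6* (ENSRNOG00000020450, chr8:117648745-117659804 of Rnor_6.0, plus strand) was at 2.76, 3.41, 3.34, 2.77 and 3.79 FPKM in male rats 1 to 5 and at 2.44, 2.38, 3.13, 2.36 and 2.47 FPKM in female rats 1 to 5. Female 3 alone was inside the male range, and the other 4 females lay closely together below all males. The means were 3.22 ± 0.444 and 2.56 ± 0.325 FPKM (SD, n = 5 each), with a log2 fold change of -0.32 (SE 0.13, 95% interval -0.60 to -0.03, limma adjusted p = 0.264).

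*Slc26a1* (ENSRNOG00000000041, chr14:2050483-2056089 of Rnor_6.0, plus strand) was at 50.2, 45.4, 59.7, 48.7 and 33.1 FPKM in male rats 1 to 5 and at 33.5, 24.2, 40.5, 54.0 and 41.2 FPKM in female rats 1 to 5. The lowest male, male 5, was below 4 of the females, and the highest female, female 4, was above 4 of the males. The means were 47.4 ± 9.61 and 38.7 ± 11.0 FPKM (SD, n = 5 each), with a log2 fold change of -0.32 (SE 0.21, 95% interval -0.77 to 0.14, limma adjusted p = 0.511). Without female 2 that value was -0.16. The gene lies wholly within *Idua*, a lysosomal hydrolase gene on the opposite strand. Whether the counting used strand is not given in the sources used here. Only spans and not exons were compared, so whether the 2 genes share reads was not tested. *Idua* averaged 20.4 ± 0.726 in males and 21.5 ± 1.86 FPKM in females (SD, n = 5 each, limma adjusted p = 0.683).

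*Slc26a11* (ENSRNOG00000030537, chr10:108480368-108503706 of Rnor_6.0, plus strand) had the narrowest spread of the 7 over all 10 rats, with an SD of 11.9% of the mean. It was at 7.06, 5.32, 7.25, 6.66 and 5.18 FPKM in male rats 1 to 5 and at 5.39, 6.39, 6.83, 6.45 and 6.57 FPKM in female rats 1 to 5. Every female lay within the male range. The means were 6.30 ± 0.979 and 6.33 ± 0.548 FPKM (SD, n = 5 each). The 95% interval of the log2 fold change, -0.25 to 0.28 around 0.02, leaves out a change of 1 in either direction (limma adjusted p = 0.969), and the sign of that estimate changed with the scaling of the libraries.

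**Figure D2:**
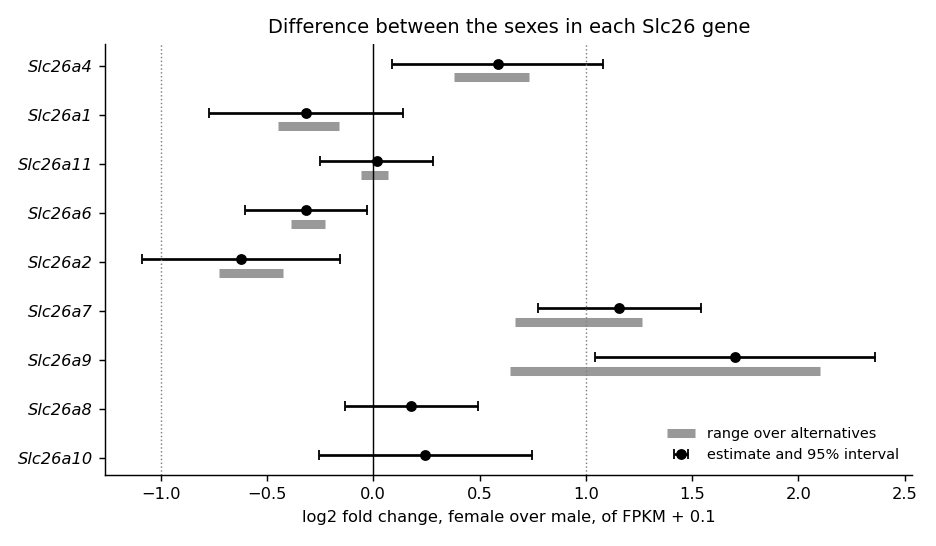
Log2 fold change of FPKM + 0.1, females over males, for 9 Slc26 genes (points, with the 95% interval of the limma fit over all genes as bars), and for the 7 members the range over the alternative settings (grey bars). Dotted lines mark -1 and 1, and *Slc26a7* at 1.16 and *Slc26a9* at 1.70 are the members beyond them.

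Genes of sulfate handling did not pass the test in either direction. Of 14 genes of sulfate uptake, activation and release, 13 were tested and 0 were called by limma, with 4 at an unadjusted p of at most 0.05, against 15.7% of all genes at that level. Limma-voom on recovered reads also called 0 of them, and scaling the libraries to total reads called 1. Their median log2 fold change was -0.01, the same as over all genes. *Papss2*, which makes the activated sulfate donor PAPS, averaged 14.0 ± 1.61 in males and 10.8 ± 0.845 FPKM in females (SD, n = 5 each, limma adjusted p = 0.0774). *Slc35b3*, which carries PAPS into the Golgi, was at 16.8 ± 1.36 and 12.7 ± 1.71 FPKM (SD, n = 5 each, limma adjusted p = 0.0843). For *Slc13a1*, the apical sodium-sulfate cotransporter of the proximal tubule, the log2 fold change was 0.48 (limma adjusted p = 0.191).

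Of 10 genes of oxalate and glyoxylate handling, 9 were tested, and 1 fell in females and 0 rose, with a median log2 fold change of -0.20. Over all genes tested, 1.14% were called lower in females and 1.26% higher. *Hao1*, the glycolate oxidase that makes glyoxylate, fell from 10.3 ± 4.34 to 2.63 ± 0.745 FPKM in females (SD, n = 5 each, log2 fold change -1.85, limma adjusted p = 0.0117). This call was kept in all 10 fits that left out 1 rat. *Agxt2*, a mitochondrial glyoxylate aminotransferase, had a difference of -0.65 on the log2 scale (limma adjusted p = 0.126), and for *Hao2*, a peroxisomal hydroxyacid oxidase, it was -0.59 (limma adjusted p = 0.249). *Agxt*, the liver-type peroxisomal enzyme, was at 0 FPKM in all 10 rats.

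Among 24 chloride and bicarbonate transporters, carbonic anhydrases and channel subunits that work beside Slc26 proteins, 2 rose in females and 0 fell. In this list 15 had a log2 fold change above 0 and 9 below, with a median of 0.14. The shares over all genes tested were 1.26% called higher and 1.14% called lower. *Slc9a2*, a sodium/proton exchanger, rose from 1.35 ± 0.249 to 3.28 ± 0.600 FPKM (SD, n = 5 each, log2 fold change 1.22, limma adjusted p = 0.00284), and the call was kept in all 10 fits that left out 1 rat. *Bsnd*, or barttin, the subunit of the basolateral ClC-K chloride channels, rose from 22.5 ± 2.01 to 32.2 ± 4.24 FPKM (SD, n = 5 each, limma adjusted p = 0.0251), but was kept in only 3 of those fits. *Kcnq1*, a potassium channel of epithelia, had a difference of 0.36 on the log2 scale (limma adjusted p = 0.110).

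Of 11 scaffold proteins, kinases and other regulators of these transporters, 2 rose in females and 0 fell, with a median log2 fold change of 0.27. By comparison, 1.26% of all genes tested were called higher and 1.14% lower. *Stk39*, the kinase SPAK of the WNK pathway, rose from 9.49 ± 0.731 to 13.8 ± 1.71 FPKM (SD, n = 5 each, limma adjusted p = 0.0179) and was kept in 9 of the 10 fits that left out 1 rat, the exception being male 3 (limma adjusted p = 0.0558). Without male 5 and female 2 it was not called (limma adjusted p = 0.0602). *Wnk1*, which acts upstream of it, rose from 49.3 ± 5.47 to 72.2 ± 11.8 FPKM (SD, n = 5 each, limma adjusted p = 0.0422) and was kept in 3 of them, but not without male 5 and female 2 (limma adjusted p = 0.0872). *Ubqln1*, a carrier of ubiquitinated proteins, had a difference of 0.30 on the log2 scale (limma adjusted p = 0.0800).

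Of 10 transcription factors, receptors and other genes tied to the control of *Slc26a4*, 1 fell in females and 0 rose. The median log2 fold change of the 10 was 0.20. Among all genes tested, 1.14% were called lower and 1.26% higher. *Esr1*, the oestrogen receptor alpha, fell from 5.50 ± 0.826 to 2.40 ± 0.791 FPKM (SD, n = 5 each, log2 fold change -1.20, limma adjusted p = 0.00793) and was kept in all 10 fits that left out 1 rat. *Hmx2*, a homeobox factor of type B intercalated cells, had a difference of 0.61 on the log2 scale (limma adjusted p = 0.0666), and *Foxi1*, the master factor of intercalated cells, 0.70 (limma adjusted p = 0.157).

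Markers of the cells that carry Slc26 proteins were read in the same libraries. In bulk RNA, more cells of a type and more RNA per cell cannot be told apart. All 11 markers shared by intercalated cells had a log2 fold change above 0, from 0.37 to 0.82, with a median of 0.50. By the test 2 of them rose, with 10 at an unadjusted p of at most 0.05 and 4 called by limma-voom. For this list and the marker lists below, the shares over all genes tested were 15.7% at that unadjusted p and 2.4% called by limma. *Rhcg*, an ammonia transporter, went from 59.4 ± 6.37 to 93.0 ± 16.0 FPKM (SD, n = 5 each, limma adjusted p = 0.0221), and *Atp6v0d2*, a proton pump subunit, from 32.1 ± 3.31 to 48.3 ± 8.65 FPKM (SD, n = 5 each, limma adjusted p = 0.0351). *Atp6v1g3*, another proton pump subunit, had a difference of 0.73 on the log2 scale (limma adjusted p = 0.0666). *Rhcg* was not called without male 5 and female 2 (limma adjusted p = 0.0665), at a log2 fold change of 0.636 against 0.634 with all rats. That fit still called 2 of the 11. The count of 2 became 0 when male 2, male 3, male 4 or female 3 was left out. The summed level of the 11 ran from 376 to 452 in males and from 482 to 678 FPKM in females, with no overlap.

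The 4 type B markers, *Slc4a9*, *Hmx2*, *Insrr* and *Spink8*, had log2 fold changes from 0.46 to 1.20 and 0 were called by limma, with 4 at an unadjusted p of at most 0.05 and 1 called by limma-voom. *Spink8*, a protease inhibitor of the Kazal type, differed by 1.20 (limma adjusted p = 0.123) and *Slc4a9*, the basolateral anion exchanger AE4, by 0.46 (limma adjusted p = 0.224). Their sum ran from 36.7 to 61.6 in males and from 56.0 to 89.9 FPKM in females. The 4 type A markers, *Slc4a1*, *Kit*, *Aqp6* and *Adgrf5*, lay between -0.03 and 0.38 with 0 called by limma or limma-voom and 1 at an unadjusted p of at most 0.05, led by *Slc4a1*, the exchanger AE1 (limma adjusted p = 0.189), *Adgrf5* (0.27, limma adjusted p = 0.407) and *Aqp6* (0.23, limma adjusted p = 0.515), and their sum ran from 96.7 to 129 in males and from 115 to 138 FPKM in females. All 8 principal cell markers had values above 0, and *Avpr2*, the vasopressin V2 receptor, rose (13.6 ± 1.75 to 18.4 ± 1.21 FPKM, SD, n = 5 each, limma adjusted p = 0.0469, but 0.0656 without male 5 and female 2). The water channel *Aqp2* differed by 0.57 (limma adjusted p = 0.122) and the sodium channel subunit *Scnn1b* by 0.42 (limma adjusted p = 0.206).

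Set against these markers, the ranges of *Slc26a4* overlapped between the sexes, while those of *Slc26a7* and *Slc26a9* did not. Their undivided levels, known when the members were chosen, already overlapped or were apart in the same way. As a percentage of the summed type B markers, *Slc26a4* was 61.5 to 97.1% in males and 82.1 to 94.6% in females, and the female mean was 1.03 times the male mean. Against the 11 shared intercalated markers it was 6.01 to 13.2% and 9.01 to 12.0%, a ratio of means of 1.01. *Slc26a7* against the same 11 was 0.141 to 0.220% in males and 0.253 to 0.367% in females, with no overlap and a ratio of means of 1.67. Against the type A markers *Slc26a7* was 0.513 to 0.871% and 1.16 to 1.72%, and against thick limb markers 0.0513 to 0.0670% and 0.0781 to 0.143%, again with no overlap. *Slc26a9* was 0.0280 to 0.0554% of the shared intercalated markers in males and 0.0583 to 0.234% in females, so that its ranges were only just apart. Against the principal cell markers it was 0.0247 to 0.0616% in males and 0.0630 to 0.268% in females, also only just apart. These percentages were formed after the values were seen and carry no test.

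**Figure D3:**
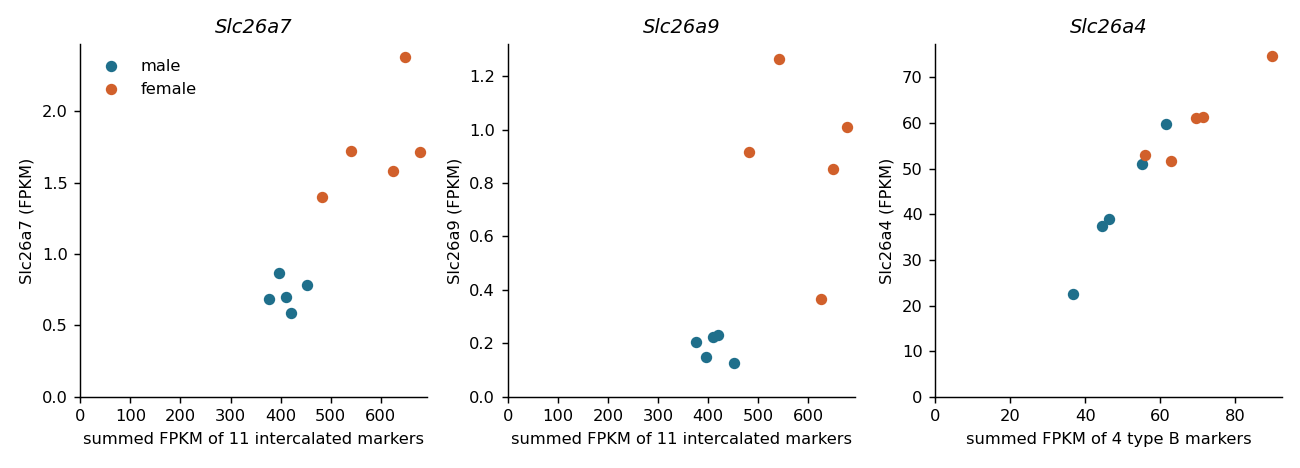
Each point is 1 rat (5 males in blue, 5 females in orange), with the level of *Slc26a7*, *Slc26a9* or *Slc26a4* (FPKM) against the summed FPKM of 11 shared intercalated markers or, for *Slc26a4*, of 4 type B markers. The sexes are apart on both axes in the first 2 panels, and in the third the male and female points run along 1 band from 22.6 to 74.7 FPKM.

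Markers of other cell types went in both directions. Of 6 thick limb markers 5 had a log2 fold change above 0 and 1 below, with a median of 0.25. All 4 tested distal convoluted markers lay above 0, with a median of 0.42. Of 10 proximal tubule markers 5 lay above 0 and 5 below, with a median log2 fold change of 0.04, and *Cubn*, the receptor cubilin, rose (50.0 ± 12.2 to 81.0 ± 11.9 FPKM, SD, n = 5 each, limma adjusted p = 0.0467, but 0.0604 without male 5 and female 2). *Slc22a6*, an organic anion transporter, differed by -0.53 (limma adjusted p = 0.160) and the water channel *Aqp1* by -0.56 (limma adjusted p = 0.233). *Slc26a1* was 1.07 to 1.43% of their sum in males and 0.918 to 1.20% in females, and *Slc26a6* was 0.0761 to 0.141% and 0.0507 to 0.0902%, both with overlap. Of 6 thick limb markers, *Egf*, the epidermal growth factor precursor, rose (30.5 ± 2.02 to 54.3 ± 8.53 FPKM, SD, n = 5 each, limma adjusted p = 0.00233) and *Ptger3*, a prostaglandin receptor, fell (34.8 ± 4.43 to 22.9 ± 4.12 FPKM, SD, n = 5 each, limma adjusted p = 0.0435). *Calb1*, the calcium-binding protein calbindin, rose among 4 tested markers of the distal convoluted tubule (139 ± 29.5 to 281 ± 71.9 FPKM, SD, n = 5 each, limma adjusted p = 0.0226, but 0.0647 without male 5 and female 2). The cotransporters *Slc12a1* of the thick limb and *Slc12a3* of the distal convoluted tubule differed by 0.35 and 0.47 (limma adjusted p = 0.243 and 0.207), and the magnesium channel *Trpm6* by 0.37 (limma adjusted p = 0.118).

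All 6 leukocyte markers had a log2 fold change below 0 (median -0.47), as did 4 of 6 endothelial and stromal markers, and 0 of the 12 were called by limma, with 4 at an unadjusted p of at most 0.05 and 0 called by limma-voom. Without female 2, the collagen *Col1a1* (-0.99, limma adjusted p = 0.0453) and the receptor *Pdgfrb* (-0.70, limma adjusted p = 0.0320) were called, and without male 5 as well neither was (limma adjusted p = 0.0647 and 0.0656). With all rats, the lowest p among leukocyte markers were those of *Csf1r* (-0.49, limma adjusted p = 0.293) and *Itgam* (-0.45, limma adjusted p = 0.340). Among endothelial and stromal markers they were those of *Col1a1* (-0.87, limma adjusted p = 0.0821), *Pdgfrb* (-0.57, limma adjusted p = 0.120) and *Dcn* (-0.80, limma adjusted p = 0.267). Their sums ran from 46.4 to 73.6 and from 189 to 265 FPKM in males, and from 21.7 to 67.4 and from 83.1 to 223 FPKM in females. *Slc26a2* was 0.943 to 1.43% of the endothelial and stromal sum in males and 0.831 to 1.32% in females, with overlap. The 3 red cell markers, *Slc4a1*, *Alas2* (0.43, limma adjusted p = 0.697) and *Hbb* (0.32, limma adjusted p = 0.870), had sums between 47.7 and 147 FPKM in males and between 50.4 and 173 in females, with 0 called by limma or limma-voom and 1 at an unadjusted p of at most 0.05. Of 6 urothelial markers 4 were tested, with 0 called by limma or limma-voom and 1, *Upk1a*, at an unadjusted p of at most 0.05 (1.57, limma adjusted p = 0.213). *Upk1b* differed by 0.63 (limma adjusted p = 0.594), and *Upk2* had 0 reads in all males. They were low, summing to 0.293 to 0.478 in males and 0.378 to 12.9 FPKM in females, the highest in female 2. All 3 red cell and all 4 tested urothelial markers had a log2 fold change above 0. The part of any cell type in the differences of the Slc26 genes was not tested.

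Over the 16 pathway and marker lists together, 13 of the 124 genes tested were called by the adjusted p, against 2.4% of all genes, with 10 higher and 3 lower in females. The count was 8 without male 5 and female 2 and ran from 4 to 16 with 1 rat left out. Of the 13, *Egf*, *Esr1*, *Hao1* and *Slc9a2* were kept in all 10 fits that left out 1 rat, while *Rhcg* was kept in 6, *Calb1* in 5, *Atp6v0d2* in 3, and *Avpr2*, *Cubn* and *Ptger3* in 2 each. The lists were also chosen with earlier results known.

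**Figure D4:**
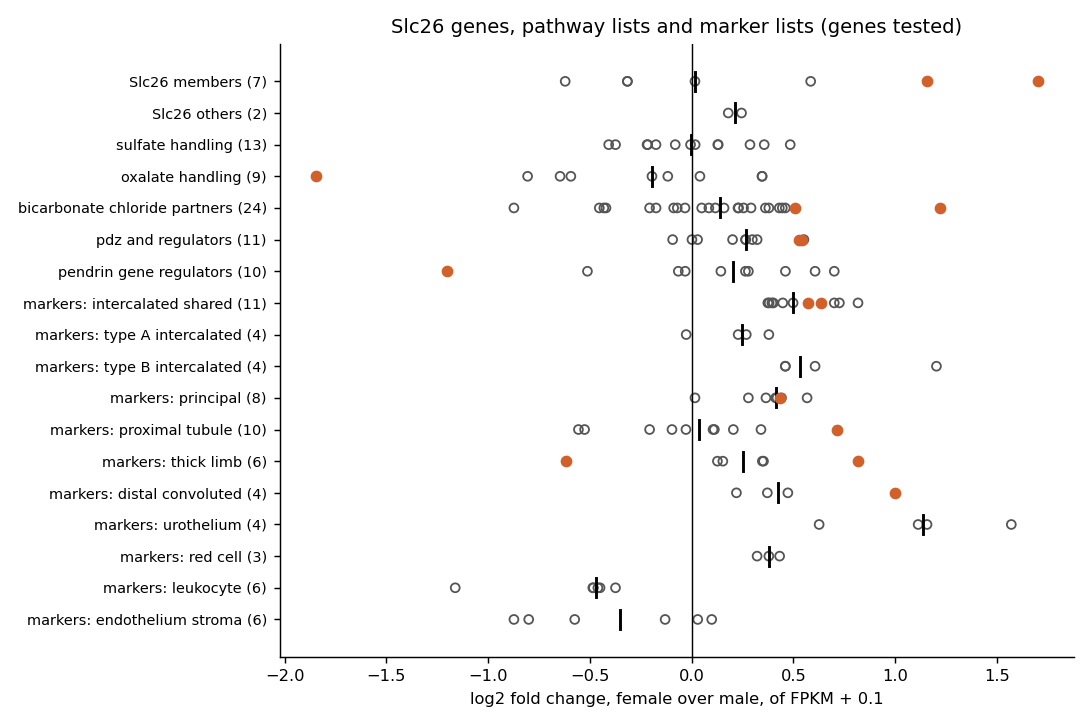
Log2 fold change of FPKM + 0.1, females over males, of each tested gene of each list (circles, filled where limma called the gene at an adjusted p of at most 0.05), with a vertical bar at the median of the list and the number of genes tested in brackets. Among the Slc26 members the 2 filled points lie at 1.16 and 1.70, and the 11 shared intercalated markers all lie above 0. So do all tested type B, principal, distal convoluted, urothelial and red cell markers.

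Within each sex, the members varied from rat to rat with different genes. For this the mean of each sex was taken off log2(FPKM + 0.1), and each member was set against 117 genes of the lists or the family with a mean of at least 1 FPKM, over the 10 libraries. The genes named are the most similar of those 117, so the coefficients are a description and carry no p, and all points share the depth and tissue make-up of their library. *Slc26a4* was closest to 2 type B markers, *Insrr* (Pearson r = 0.94, Spearman rho = 0.92) and *Hmx2* (r = 0.88, rho = 0.93). With the 2 rats farthest from the median left out, r was 0.91 and 0.84.

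*Slc26a1* was closest to 2 genes of the proximal tubule, the scaffold *Pdzk1* (r = 0.94, rho = 0.79) and the glucose transporter *Slc5a2* (r = 0.93, rho = 0.89), with r of 0.81 and 0.82 without the 2 farthest rats. *Slc26a2* was closest to *Spp1*, the secreted phosphoprotein osteopontin (r = 0.94, rho = 0.93, and 0.92 without the 2 farthest), and to the macrophage receptor gene *Csf1r* (r = 0.87, rho = 0.81, and 0.75 without them). *Slc26a11* was closest to *Slc26a8* (r = 0.85, rho = 0.71, and 0.71) and to *Aqp6*, a water channel of type A cells (r = 0.79, rho = 0.77, and 0.63).

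For *Slc26a7* the highest were *Stk39* (r = 0.81, rho = 0.87) and *Rhcg* (r = 0.69, rho = 0.59), and r dropped to 0.55 and 0.24 without the 2 farthest rats. For *Slc26a6* they were *Ldha* (r = 0.55, then 0.13) and *Slc35b3* (r = 0.46, then 0.29), and for *Slc26a9* *Ubqln1* (r = 0.61, then 0.41) and *Hbb* (r = 0.54, then 0.07). Among the 21 pairs of members, r ran from -0.59 for *Slc26a1* with *Slc26a2* to 0.55 for *Slc26a1* with *Slc26a11*, and 3 pairs were beyond 0.5 in either direction.

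**Figure D5:**
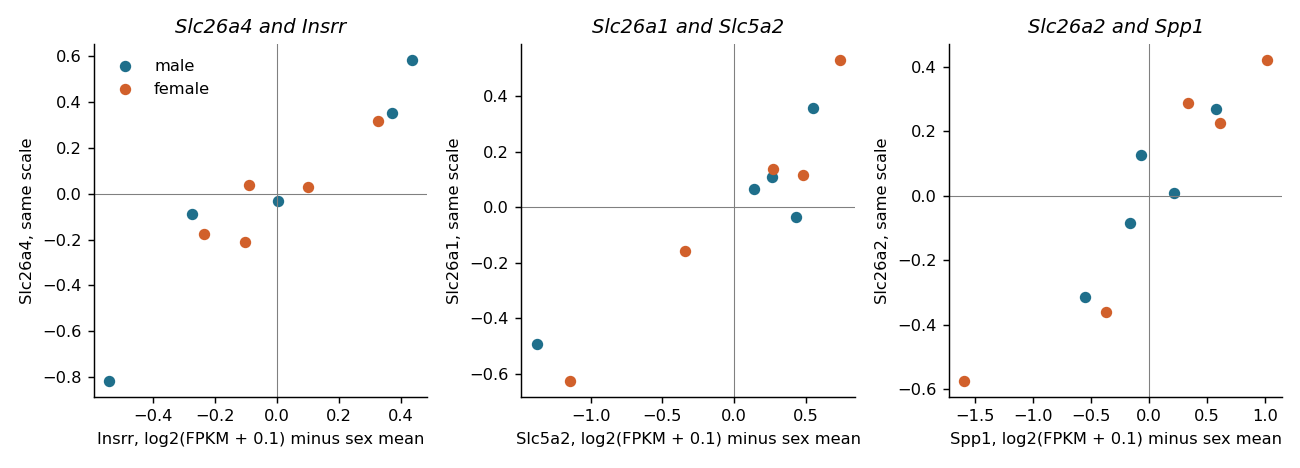
Deviation of each rat from the mean of its sex, in log2(FPKM + 0.1), for *Slc26a4* with *Insrr*, *Slc26a1* with *Slc5a2* and *Slc26a2* with *Spp1* (5 males in blue, 5 females in orange). Points of both sexes run from lower left to upper right, with r of 0.94, 0.93 and 0.94.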

How the data were processed

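RNA of kidney from 10 PCK rats was measured by poly-A RNA sequencing, and samples were grouped by the sex in their labels. The authors' provider mapped reads to Rnor_6.0, and the submitters' processing notes list fastp, HISAT2 2.0.5, StringTie 1.3.3b and featureCounts 1.5.0-p3. The authors deposited 1 table of FPKM for 32545 genes, of which 22113 had a read, and tested their counts, which were not used here, with DESeq2. Whether counting used strand is not given in the sources used here.

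Each FPKM was divided by the worth of 1 read at the deposited gene length, which gave whole reads (tolerance 0.1) for 100% of values, and depth and counting intervals come from those reads. The values are not counts, so genes whose mean reached 0.1 FPKM were tested on log2(FPKM + 0.1) by limma (lmFit, then eBayes with a trend), with Benjamini-Hochberg adjustment over all genes. The procedure was tested on simulated data. The members and lists were chosen with earlier results of these data known. The genes named are all Slc26 genes, genes overlapping them, list genes called by the adjusted p or, where under 3 were called, the 3 with the lowest p, and the 2 genes most like each member. *Sqor*, *Hba-a2* and *Hba-a3* were not analysed here, as no row was matched to them by symbol, and a few list genes and 1 motif are not reported here. The p-values treat the rats as independent, although the methods describe littermates of 2 litters, and litter did not enter the fit. No 2 libraries agreed within sampling noise. Motifs were searched in RefSeq promoter windows, and windows of *Slc26a6*, *Slc26a7* and *Slc26a11* were not used here.

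Alternatives were pseudocounts of 1 and 0.01, a minimum mean of 1 FPKM or none, quantile and median-ratio scaling, robust eBayes, eBayes without trend, a block for the replicate number, limma-voom on recovered reads, and leaving out each rat. Scaling to total reads and leaving out male 5 with female 2 were added after seeing the data. Python 3.11.15 with numpy 2.4.6, pandas 2.3.3, scipy 1.17.1 and matplotlib 3.10.9 and R 4.3.3 with limma 3.58.1 were used.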

Additional observations from a re-analysis of the deposited data

Results flagged for a closer look

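*Slc26a6* in female 3 was at 3.13 FPKM, while the other 4 females lay between 2.36 and 2.47 FPKM. The gap to the nearest female was 0.861 of the range of the group, above Dixon's critical value of 0.71 for 5 samples. The only other gene past that value was *Slc26a3*, at 0.0190 FPKM in male 2 and 0.0 FPKM in female 2, and it had at most 1 read per rat. Groups of 10 Slc26 genes in each sex were checked, 3 of 20 passed, and chance flags about 1 in 20. Without female 3 the log2 fold change of *Slc26a6* was -0.39, against -0.32 with all rats, and it was not called in either fit.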

How the results depend on the processing

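Over 22 alternatives, *Slc26a4*, *Slc26a1*, *Slc26a6*, *Slc26a2* and *Slc26a7* kept their direction and their side of the adjusted p of 0.05, though *Slc26a7* fell under the fold threshold with a pseudocount of 1 (0.67). Among the alternatives, median-ratio scaling could change next to nothing, as its factor was the same in every library. The adjusted p of *Slc26a7* ran from 0.00188 to 0.0424. For *Slc26a9*, which a filter at a mean of 1 FPKM left untested, the log2 fold change ran from 0.65 to 2.10 over 21 alternatives, and the call was lost with the replicate number as a block (1.70, adjusted p = 0.0751) and without male 5 and female 2 (1.59, adjusted p = 0.0592). Replicate numbers did not pair the rats, with r from -0.16 to 0.16 between same-numbered deviations. With the replicate block, 119 genes were higher and 112 lower by the adjusted p alone, with 1 member and 3 list genes, *Hao1* being among those lost (adjusted p = 0.0641). *Slc26a11* changed sign on scaling to total reads (-0.058) and without male 5 and female 2 (-0.054), and ran from -0.050 to 0.072 with 1 rat left out, below 0 without male 2, male 5 or female 3. Scaling to total reads shifted the median of all genes to -0.08 and gave 170 genes higher and 235 lower, against 223 and 201. A pseudocount of 1 left 65 higher and 72 lower by both thresholds and 0 members, since the log2 fold changes of low genes shrink. By both thresholds and by the adjusted p alone, 1 member was called with a filter at a mean of 1 FPKM, with the block and without male 5 and female 2. Leaving out 1 rat gave 140 to 284 genes higher and 124 to 266 lower by the adjusted p, lowest without male 3 and without female 5. The 13 list genes called became 7 with eBayes without trend, 8 without male 5 and female 2, and 4 to 16 with 1 rat left out (5 without male 2, 4 without male 3, 6 without male 4, 8 without male 5, 5 without female 3, 6 without female 4). In reads without length, 5 of the 6 neighbouring pairs kept the order of levels. Depth limits *Slc26a9*, *Slc26a3* and *Slc26a5*, and the cause of these shifts was not tested.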
